A study of Caenorhabditis elegans with 2 samples.

Results

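Small nucleolar RNA (snoRNA) genes of *Caenorhabditis elegans* were examined for chromatin binding by PROS-1, the worm Prospero protein, a transcription factor with a homeodomain. The members were all 346 genes with the biotype snoRNA in the WBcel235 (ce11) annotation, of 46890 annotated genes, each extended by 200 bp on both sides and scored by the strongest peak summit inside. In chromatin immunoprecipitation with sequencing (ChIP-seq) the DNA held by a chosen protein is pulled down and read, here with PROS-1 carrying an eGFP tag. The samples were whole late embryos, males and females pooled, in 1 group of 2 biological replicates. All came from strain OP500, which carries the mutation unc-119(tm4063) on chromosome III and the insertion wgIs500 holding the tagged pros-1. The tagged protein came from an inserted transgene, and the sequences that drive it are not given in the sources used here. Whole organisms were used, so a value mixes every cell type of the embryo, and no untagged or differently treated group was compared. Read totals were not analysed here, so the depth of each replicate is unknown.

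SnoRNAs guide chemical modification of ribosomal and spliceosomal RNA. Box C/D snoRNAs direct ribose methylation and box H/ACA snoRNAs direct conversion of uridine to pseudouridine. In many animals a snoRNA lies in an intron of a host gene and is released when that intron is spliced out. Worm snoRNA genes occur both in introns and between genes, and some carry promoter sequences of their own just before the RNA. Known promoter types for short RNAs include the A and B boxes of transfer RNA (tRNA) genes, which bind the factor TFIIIC and serve RNA polymerase III, and the proximal sequence element of small nuclear RNA (snRNA) genes.

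A peak was called at 38 of the 346 snoRNA genes, nearly always just before the RNA start, and a set of the stretches there held a tRNA-type pair of boxes. The sequences below run from 100 bases before the first base of the RNA to 20 bases into it, on the strand of the RNA. The last 20 bases are thus RNA. They are examples that mostly hold an element and do not stand for the calls as a whole. Of the 38 called members 13 had the pair, 3 had the snRNA-type element described below, and 22 had neither. In the first 6, capitals mark the A box (GGNNNAGNGG or GGNNNAGNNGG) and the B box core (GTTCGA or GTTCAA) of the matched pair, and any further copy of a box stays in lower case. The first is from chrV:12303608-12303727 on the plus strand, before C51F7.3. The next come from chrV:11314158-11314277 (plus), chrII:11960798-11960917 (plus), chrIII:502704-502823 (plus), chrII:9774815-9774934 (minus) and chrV:15873907-15874026 (minus). All 6 genes had a called summit. All coordinates are of WBcel235 (ce11), and the sequences are from its RefSeq genome.
C51F7.3: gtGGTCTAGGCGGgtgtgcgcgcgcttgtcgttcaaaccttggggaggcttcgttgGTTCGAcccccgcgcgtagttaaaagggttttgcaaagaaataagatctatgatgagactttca
T03F7.8: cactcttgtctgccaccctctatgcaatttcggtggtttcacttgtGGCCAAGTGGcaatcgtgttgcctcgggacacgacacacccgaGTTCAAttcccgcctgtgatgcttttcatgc
W03C9.9: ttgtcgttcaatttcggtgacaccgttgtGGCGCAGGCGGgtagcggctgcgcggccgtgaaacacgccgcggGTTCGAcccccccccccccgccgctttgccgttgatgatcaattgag
F30H5.4: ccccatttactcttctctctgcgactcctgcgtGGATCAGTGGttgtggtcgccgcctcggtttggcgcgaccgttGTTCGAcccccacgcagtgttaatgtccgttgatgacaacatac
T10B9.11: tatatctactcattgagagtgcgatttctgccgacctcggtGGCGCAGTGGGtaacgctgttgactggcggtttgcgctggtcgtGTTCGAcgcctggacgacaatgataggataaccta
T06C12.16: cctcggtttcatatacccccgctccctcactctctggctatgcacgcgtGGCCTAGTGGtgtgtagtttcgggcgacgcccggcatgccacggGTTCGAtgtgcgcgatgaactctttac

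Another set carried an snRNA-type element, spelled here as CCCG followed 5 bases later by TGTC, shown in capitals for the 3 called members that have it and for W04D2.7, which has it and has no summit in any list. They lie at chrIV:9511447-9511566 (minus), chrV:8500479-8500598 (plus), chrII:15025874-15025993 (minus) and chrV:12491180-12491299 (plus). The last pair of stretches set limits on any such reading. M7.15 (chrIV:11083047-11083166, plus) had a strong call and neither element, and Y59E1B.14 (chrX:1891409-1891528, plus) had both tRNA-type boxes and a pooled candidate that ranked 29922 of 30000. W04D2.7 and Y59E1B.14 were chosen after their values were seen.
smy-2: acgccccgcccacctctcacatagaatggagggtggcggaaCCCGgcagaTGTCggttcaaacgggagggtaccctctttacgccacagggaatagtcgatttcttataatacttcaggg
ZK994.7: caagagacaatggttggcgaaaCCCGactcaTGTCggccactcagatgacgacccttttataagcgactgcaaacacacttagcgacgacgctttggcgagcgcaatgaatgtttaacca
Y53F4B.47: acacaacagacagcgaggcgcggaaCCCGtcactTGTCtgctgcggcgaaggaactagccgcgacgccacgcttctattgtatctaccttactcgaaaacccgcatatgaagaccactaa
W04D2.7: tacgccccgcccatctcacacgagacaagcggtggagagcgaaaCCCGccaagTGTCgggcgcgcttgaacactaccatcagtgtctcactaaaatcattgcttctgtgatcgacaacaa
M7.15: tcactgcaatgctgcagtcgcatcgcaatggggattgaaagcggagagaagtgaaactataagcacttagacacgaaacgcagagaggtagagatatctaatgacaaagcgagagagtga
Y59E1B.14: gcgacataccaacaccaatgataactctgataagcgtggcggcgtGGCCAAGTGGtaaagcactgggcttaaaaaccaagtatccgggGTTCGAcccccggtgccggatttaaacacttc

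The authors called 30000 candidate regions, background included, in each replicate and in both replicates pooled, and deposited 737 peaks that passed an irreproducible discovery rate (IDR) threshold, called IDR peaks here. Each has a summit and a signal value, the authors' own measure of strength on a scale that is not stated, which is used here only to rank peaks within a list. Of the 346 members, 38 had an IDR summit inside the extended gene (10.98%, exact binomial 95% interval 7.89 to 14.8%). The corresponding share was 1.57% of all 46890 annotated genes extended in the same way, many of them longer than a snoRNA gene, and 0.366% of 500 bp tiles of the genome. The extended members averaged 537 bp, so a tile is nearly as long as a member. Transfer RNA genes, with 36 of 612 (5.88%), and snRNA genes, with 7 of 129 (5.43%), were also above the tiles. The intervals cover the counting of genes only. Genes are not replicates of a condition, 37 members had a window that met that of another member, and no test over genes was made.

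In their own lists the replicates reached the members about as often as the pooled list did. Among the 737 strongest candidates of replicate 1, called top candidates here, summits lay in 31 members (8.96%), beside 0.365% of tiles. Those of replicate 2 reached 35 members (10.1%), again beside 0.365% of tiles. A top candidate of both replicates lay in 19 members (5.49%), against 0.143% of tiles. These 19 were 61.3% of the members reached in replicate 1 and 54.3% of those reached in replicate 2. Down to the weakest candidates, 131 members (37.9%) held some pooled summit, beside 14.5% of tiles, so most snoRNA genes, 215 of 346, held none.

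The 38 called members shared 37 distinct summits, which made up 5.02% of the 737 IDR peaks. Their signal values ran between 26.8 and 105.5 with a median of 39.5, where the whole IDR list ran between 26.4 and 127.1 with a median of 36.4. In the pooled list 7 members were among the 100 strongest candidates. The single shared summit belonged to C51F7.3 and C51F7.4, a neighbouring pair of snoRNA genes on chromosome V.

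The strongest call was at W06H8.17 (chrV:6227355-6227550, minus strand), a snoRNA gene outside any protein-coding gene, with a pooled signal value of 105.5 (rank 7) and a summit 191 bp before the RNA. It had a signal value of 17.5 in replicate 1 (rank 73) and no summit inside the window in replicate 2. That absence is set by the window: a replicate 2 summit with a signal value of 87.7 (rank 8) lay 15 bp from the IDR summit, outside the 200 bp limit. The nearest protein-coding start, that of W06H8.6, was 731 bp away, with the summit upstream of it.

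C51F7.3 (chrV:12303708-12303783, plus strand) is nested in an intron of frm-7, which encodes a FERM domain protein. Its summit had a pooled signal value of 105.4 (rank 8), with 22.6 in replicate 1 (rank 25) and 84.7 in replicate 2 (rank 10). With its neighbour C51F7.4, which shares the summit, it was the highest of the 19 members that were top candidates in both replicates. The summit lay 66 bp before C51F7.3 and 43 bp inside C51F7.4, which overlaps an exon. The stretch printed above holds the A box starting 98 bases and the B box starting 44 bases before C51F7.3, and the summit fell between them.

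M7.15 (chrIV:11083147-11083243) and ZK20.9 (chrII:11635225-11635327) lie outside protein-coding genes and carried neither element. M7.15 had a pooled signal value of 73.2 (rank 51), with 18.4 in replicate 1 (rank 63) and 59.9 in replicate 2 (rank 47), and its summit was 711 bp upstream of klc-1, a kinesin light chain gene. ZK20.9 had 64.4 (rank 76), with 5.31 in replicate 1 (rank 4387) and 64.5 in replicate 2 (rank 32). The replicates thus placed M7.15 close together and ZK20.9 far apart.

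T03F7.8 (chrV:11314258-11314332) lies in an intron of cutl-18, a cuticlin-like gene, on the strand opposite to it. It had the strongest summit of any member in replicate 1, with a signal value of 29.96 (rank 5), against 37.4 in replicate 2 (rank 189) and a pooled value of 65.8 (rank 70). Its summit was 2669 bp inside cutl-18 from the nearest start and 26 bp before the snoRNA. C27H5.9, on the opposite strand of pdl-1, had a pooled value of 55.2 (rank 117), with 6.69 in replicate 1 (rank 1961) and 45.4 in replicate 2 (rank 109). ZK484.9, on the opposite strand of the ABC transporter gene haf-9, had 42.2 (rank 259), with ranks of 4959 in replicate 1 and 176 in replicate 2. Of these intronic genes on the opposite strand, T03F7.8 alone of the 3 was a top candidate in both replicates.

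Among the remaining strong members outside introns, W03C9.9 (chrII:11960898-11960959) had a pooled signal value of 58.2 (rank 99), ranking 2878 in replicate 1 and 73 in replicate 2. ZK265.10, upstream of the chemoreceptor gene sre-23 by 629 bp, had 57.4 (rank 106) and ranked 60 in replicate 1 and 148 in replicate 2. F30H5.4 (chrIII:502804-502889) had 52.5 (rank 125), ranked 78 in replicate 1 and 220 in replicate 2, and its summit was 9470 bp from the nearest protein-coding start. T02E1.9, which overlaps an exon, had 50.6 (rank 152) with ranks of 205 in replicate 1 and 232 in replicate 2. All but W03C9.9 of these were among the top candidates of both replicates.

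Strong nested members came next. The gene smy-2 (chrIV:9511395-9511466), a member by its annotated biotype alone, lies in an intron of C33A12.3. It had a pooled signal value of 49.7 (rank 160) and ranked 635 in replicate 1 and 195 in replicate 2. F55A11.10, in F55A11.6, had 47.6 (rank 188), with ranks of 237 in replicate 1 and 216 in replicate 2, and its summit was 94 bp after the start of that host. W08G11.6, in W08G11.3, had 47.1 (rank 193), with ranks of 226 in replicate 1 and 208 in replicate 2. ZK994.7, in an intron of the peroxidasin gene pxn-1, had 45.9 (rank 205), with ranks of 53 in replicate 1 and 473 in replicate 2. All 4 were top candidates of both replicates, and the summit at ZK994.7 was 5678 bp inside pxn-1 from the nearest start.

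**Figure D1:**
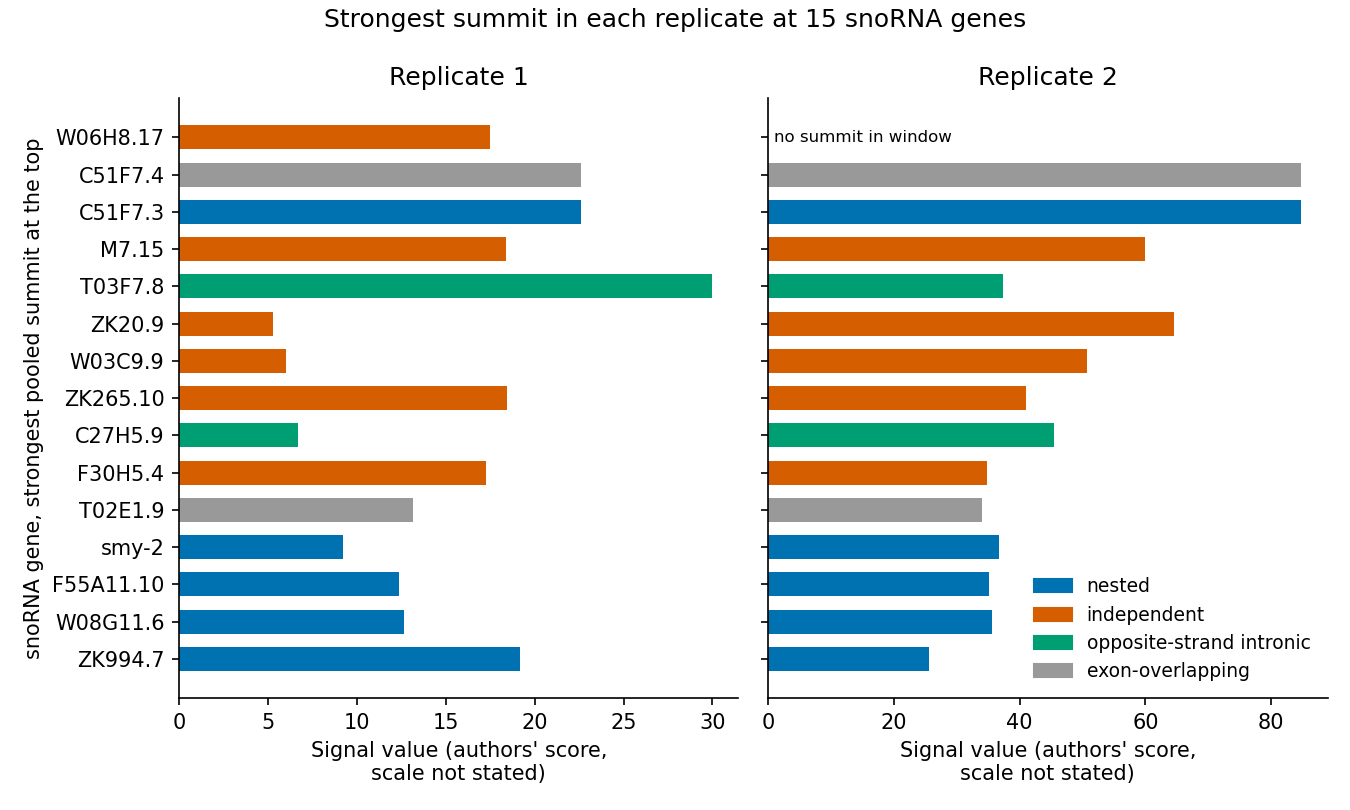
Signal value of the strongest summit inside the window in replicate 1 (left) and replicate 2 (right), each on its own axis of the authors' score, for the 15 snoRNA genes with the strongest pooled summit; bar colours give the position class. T03F7.8 was highest in replicate 1 with 29.96, C51F7.3 and C51F7.4 share 1 summit at 84.7 in replicate 2, and W06H8.17 has no bar in replicate 2 because its summit fell outside the window.

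The next 10 members had pooled signal values between 35.4 and 42.2. They were ZK484.9, Y53F4B.47, C27H6.5 in the synaptic gene unc-41, Y38F2AR.14 in Y38F2AR.12, Y53F4B.48, H09I01.2, T06C12.16, C14C10.8 in ril-2, Y75B12B.12 and T10B9.11. Y53F4B.47 (chrII:15025814-15025893), whose summit was 131 bp upstream of the cap methyltransferase gene cmtr-1, ranked 47 in replicate 1 and 697 in replicate 2. The IDR summit of Y53F4B.48 lay 356 bp upstream of the glutathione S-transferase gene gst-27. Y75B12B.12 ranked 3959 in replicate 1 and 339 in replicate 2. Of all 38 members, 19 were top candidates in both replicates, 14 in replicate 2 only, 4 in replicate 1 only and 1 in neither. Those in replicate 1 only include W06H8.17, whose strong replicate 2 summit lay just outside the window.

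Members near the IDR threshold were D2021.6, upstream of the succinate dehydrogenase gene sdha-1, with a signal value of 27.5 (rank 677), and ZK643.9 with 26.8 (rank 716). Just outside it were C17D12.8 with 25.6 (rank 782) and T08B2.13, nested in the phenylalanyl-tRNA synthetase gene fars-1, with 25.4 (rank 806). T08B2.13 ranked 400 in replicate 1 and 1746 in replicate 2. Without an IDR summit, 8 members were top candidates of replicate 1 and 2 were top candidates of replicate 2. C26C6.13 ranked 124 in replicate 1 and W01A11.21, nested in unc-83, ranked 561 there, and neither had a summit in its window in replicate 2.

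Over the 83 members with a candidate in both replicates, the signal values had a Spearman rho of 0.476 and a Pearson r of 0.489 on the log2 scale, given as a description since all points come from the same pair of libraries. The replicate summits were a median of 34 bp apart at the 37 called members with a summit in both, at most 181 bp apart, and within 50 bp at 26 of them. The summits therefore do not resolve the single boxes shown above.

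**Figure D2:**
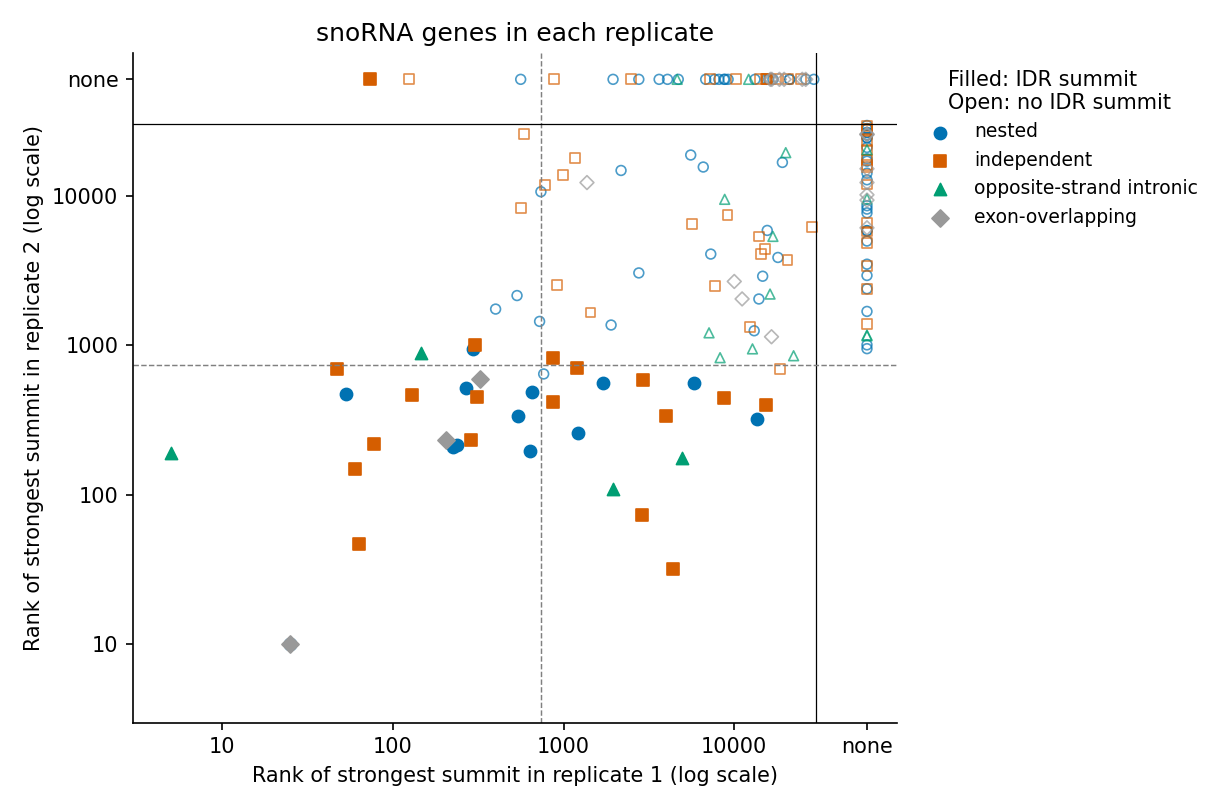
Rank of the strongest summit in each snoRNA window in replicate 1 (horizontal) and replicate 2 (vertical), on log axes, with low ranks strongest; filled marks have an IDR summit, open marks do not, and "none" marks members with no candidate in that replicate. Dashed lines stand at rank 737. Of the filled marks, 19 lie inside both dashed lines, and the grey mark at ranks 25 and 10 covers the blue one of C51F7.3, which has the same summit.

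Genes nested in host introns were then compared with independent ones. Nested members, which lie inside an intron of a protein-coding transcript on the same strand, numbered 150, and independent members, which overlap no protein-coding gene, numbered 124. The other members were 28 in introns on the opposite strand and 44 overlapping an exon. An IDR summit was found in 13 nested members (8.67%, interval 4.70 to 14.4%) and in 18 independent members (14.5%, interval 8.84 to 21.97%). The difference, nested minus independent, was -5.85 percentage points. It was -0.344 points for the top candidates of replicate 1, with 14 nested members (9.33%) and 12 independent members (9.68%). It was -4.24 points for those of replicate 2, with 13 nested members (8.67%) and 16 independent members (12.9%). With 1 of the 2 replicates near 0, a difference between the classes was not established. Tiles centred in protein-coding introns held an IDR summit in 0.262% of cases, and tiles centred outside protein-coding genes in 0.627%. Both classes of snoRNA gene were therefore above tiles in like positions.

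Being in both replicates' top candidates was about as frequent in each class, with 8 nested members (5.33%) and 7 independent members (5.65%). Some pooled candidate lay in 49 nested members (32.7%) and 52 independent members (41.9%), a difference of -9.27 points. At each number of candidates plotted the nested share was under the independent share, in the pooled list and in both replicates, though these counts contain one another. Signal values overlapped throughout, with a median of 39.5 at nested members (29.4 to 105.4, n = 13) and 38.8 at independent members (26.8 to 105.5, n = 18). Of the members in introns on the opposite strand 4 of 28 (14.3%) were called, and of those overlapping an exon 3 of 44 (6.82%).

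**Figure D3:**
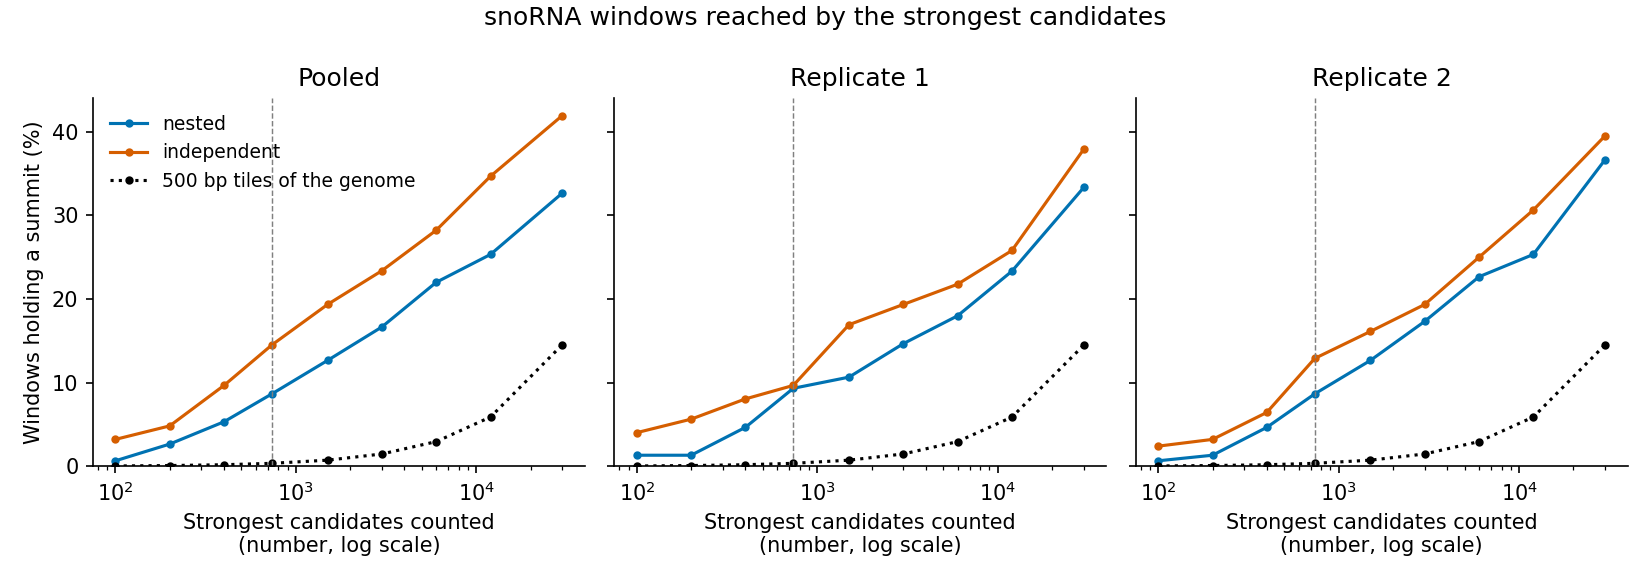
Share of nested members, independent members and 500 bp genome tiles (vertical, %) that hold a summit among the strongest candidates, as the number of candidates counted goes from 100 to 30000 (horizontal, log scale), for the pooled list and each replicate; the dashed line stands at 737. Both classes of member lie above the tiles in each panel, and at 737 the nested share is 9.33% and the independent share 9.68% in replicate 1.

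The comparison was also split by protein-coding promoters near the genes. Each start of a protein-coding transcript was given a promoter window of 1000 bp before it and 200 bp after it. Where the member's window reached none, 8 of 80 nested members (10%) and 8 of 74 independent members (10.8%) had an IDR summit, a difference of -0.811 points. Where it reached one, the counts were 5 of 70 nested members (7.14%) and 10 of 50 independent members (20%). Over all members, 17 of 142 reaching a promoter window were called (12.0%), and 21 of 204 reaching none (10.3%). The part of neighbouring protein-coding promoters in the independent share was not tested. At 14 of the 38 called members the summit itself lay in a promoter window, and 4 of these members were nested and 9 independent. The share of all IDR summits in such windows is not given here, so this count cannot be called high or low.

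The nested calls were spread over host genes. The 150 nested members had 131 distinct hosts, and the 13 called nested members had 13 different ones. Ribosomal protein genes are a known class of snoRNA host. They were taken here as hosts with names starting with rpl- or rps-, so any with another name counts among the other hosts. None of the 19 members nested in a host so named had an IDR summit or a top candidate in either replicate. That allows a share of up to 17.6%, and 3 had a weaker pooled candidate (15.8%). Of the 131 members nested in other genes 13 were called (9.92%) and 46 held some pooled candidate (35.1%). The replicates did not share that contrast in weak candidates. In replicate 1 they lay in 6 of 19 members at ribosomal protein hosts (31.6%) and 44 of 131 at other hosts (33.6%), and in replicate 2 in 2 of 19 (10.5%) and 53 of 131 (40.5%), beside 14.5% of tiles in each replicate. With 0 of 19 the intervals overlap, so a lower share at ribosomal protein hosts was not detectable.

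Called summits lay almost always before the RNA. Of the 37 distinct IDR summits, 36 were upstream of the RNA start (97.3%, interval 85.8 to 99.9%), 34 of them within 100 bp, 1 was inside the gene, and none was downstream. Of the bases in the members' windows 37.2% lie before the start. The 13 summits at nested members were all upstream, between 6 and 81 bp before the RNA with a median of 30 bp, and the 18 at independent members were too, between 4 and 191 bp before it with a median of 53 bp. Nested calls thus lay close to the snoRNA. At 9 of the 13 the summit was outside every protein-coding promoter window. The windows of 80 of all 150 nested members reached none, so this count cannot be called high or low. In replicate 1 on its own 24 of 30 distinct top summits were upstream (80.0%), and in replicate 2 it was 32 of 34 (94.1%). Pooled candidates that did not pass IDR were upstream in 56 of 103 cases (54.4%).

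**Figure D4:**
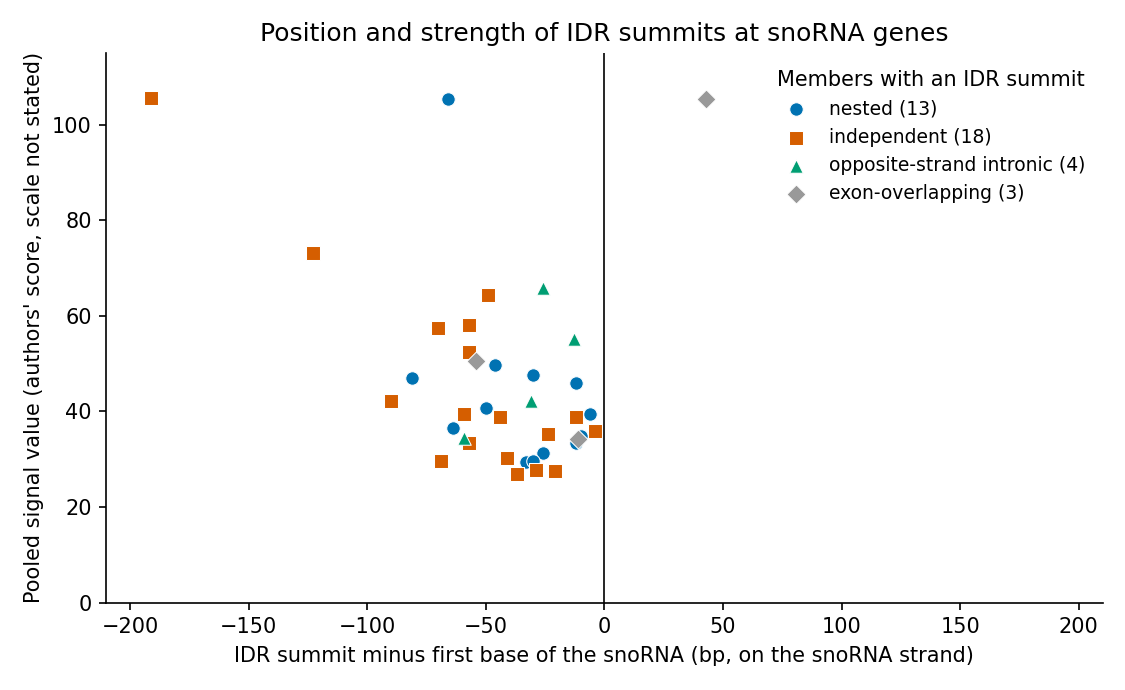
Position of the IDR summit relative to the first base of the snoRNA (horizontal, bp, negative before the RNA) and its pooled signal value (vertical, authors' score) for the 38 called members, by position class. Only the summit shared by C51F7.3 and C51F7.4 falls inside a snoRNA gene, 43 bp into C51F7.4, and it is drawn once for each of these genes.

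The upstream stretches were searched on the strand of the RNA for the pair of boxes, an A box with a B box core starting 20 to 60 bases after its end. These spellings were chosen after the stretches before called members had been read, so the counts describe these members and are no test. The pair occurred before 23 of 346 members (6.65%). It occurred in 6 of 19973 stretches of the same length before protein-coding genes (0.0300%) and in 699 of 835602 genome tiles of that length (0.0837%). Inside tRNA genes these letters matched 236 of 612 (38.6%), so the spelling misses most annotated tRNA genes. Over both strands the pair was in the same 23 members, and in 10 protein-coding stretches (0.0501%).

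Of the members with the pair, 22 of 23 held some pooled summit (95.7%). Over all members it was 131 of 346 (37.9%), and over tiles 14.5%, from a candidate list that includes background. Of the 23, 13 had an IDR summit (56.5%, interval 34.5 to 76.8%), 9 a weaker pooled candidate and 1 none, the last being T23B12.13 in mrps-2, named after its values were seen. Of the 299 members with neither element 22 had an IDR summit (7.36%, interval 4.67 to 10.9%), 73 a weaker candidate and 204 none. Top candidates of replicate 1 were in 9 members with the pair (39.1%) and in 19 members with neither element (6.35%). Those of replicate 2 were in 12 with the pair (52.2%) and in 20 with neither (6.69%). The direction was the same in each replicate alone, but this is no separate support. The spellings were chosen from stretches before called members, and both replicates entered those calls.

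The boxes sat at like distances across members. The B box began between 5 and 44 bases before the RNA, with a median of 14, and 33 bases separated it from the A box at the median (31 to 43). The pooled summit lay a median of 21 bp before the B box in the 22 members with one. The RNAs were short, with a median annotated length of 75 bases (62 to 139, n = 23), against 131 bases (54 to 344, n = 299) for members with neither element. No tRNA or snRNA gene was annotated in the window of any of the 346 members, and the nearest tRNA gene to a called member was 943 bp away, at ZK994.7.

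The pair occurred in both position classes. It was present before 11 of 150 nested members (7.33%) and 9 of 124 independent members (7.26%), before 3 of 28 members on the opposite strand and before none of the 44 that overlap an exon. Of the 11 nested members with the pair 4 had an IDR summit (36.4%) and 10 some pooled candidate (90.9%). Of the 9 independent ones 6 had an IDR summit (66.7%) and all 9 some candidate. Without either element, 7 of 131 nested members (5.34%) and 11 of 103 independent members (10.7%) were called. With so few genes the intervals of the nested and independent shares overlap widely, from 10.9 to 69.2% for nested and from 29.9 to 92.5% for independent members with the pair.

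Single boxes were counted in the members without the pair. The B box core was in 8 of 25 such called members (32%), in 8 of 84 with only a weaker candidate (9.52%) and in 18 of 214 with no summit (8.41%). The A box was in 6 of 25 called members (24%), in 4 of 84 (4.76%) and in 10 of 214 (4.67%). Without the pair, members with only a weaker candidate thus had either box about as often as those with no summit. With pairs included, the B box core was in 17 of 93 (18.3%) against 19 of 215 (8.84%). The A box was then in 13 of 93 (14.0%) against 11 of 215 (5.12%). Before protein-coding genes the B box core was found in 7.10% of stretches and the A box in 1.27%, pairs included. No match means only that these letters are not in the stretch.

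The snRNA-type element occurred before 24 of 346 members (6.94%), none of which also had the pair of boxes. It was found before 29 of 129 snRNA genes (22.5%) and 15 of 19973 protein-coding genes (0.0751%). Of the 24 members 3 had an IDR summit (12.5%, interval 2.66 to 32.4%), 11 a weaker candidate and 10 none. The called ones were smy-2, ZK994.7 and Y53F4B.47, printed above, and all 3 were top candidates of both replicates. The interval of the share called overlapped that of members with neither element. Some pooled candidate was present in 14 of 24 (58.3%, interval 36.6 to 77.9%) against 95 of 299 (31.8%, interval 26.5 to 37.4%). These intervals overlapped too, though narrowly. Candidates of replicate 1 lay in 45.8% against 31.1%, and those of replicate 2 in 50% against 34.1%.

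**Figure D5:**
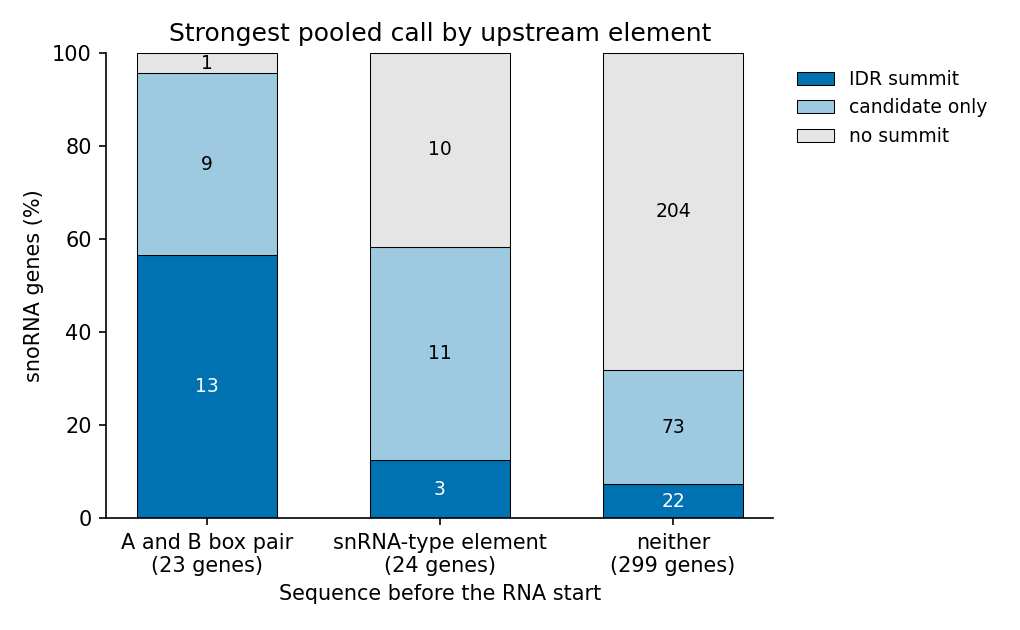
Share of snoRNA genes (vertical, %) with an IDR summit, only a weaker pooled candidate or no pooled summit, for members with the A and B box pair, the snRNA-type element or neither before the RNA; numbers in the bars are genes. IDR summits were at 13 of 23 members with the pair, 3 of 24 with the snRNA-type element and 22 of 299 with neither.

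Other short motifs were counted on both strands within 50 bp of the summits. GGTTCGA, a longer spelling that overlaps the B box core, was at 7 of the 37 summits of members (18.9%). Among the 700 other IDR summits it was at 12 (1.71%). The spelling of the core was chosen after reading stretches before these called members, so this contrast is no separate support. GAGAGAG was at none of the 37 and at 132 of the 700 (18.9%). GGGCGG was at 6 of 37 (16.2%) and 56 of 700 (8%), and AAGACG or AAGGCG at 2 of 37 (5.41%) and 87 of 700 (12.4%). TATAAA was at 2 of 37 (5.41%) and 17 of 700 (2.43%), and TGACGTCA at 0 of 37 and 1 of 700. The GC content of the same stretches had a median of 56.4% at members (46.5 to 69.3%, n = 37) and 51.5% at the other summits (32.7 to 74.3%, n = 700).

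Boxes of the RNA itself were also searched by their letters. Box C (ATGATGA or GTGATGA in the first 25 bases) with box D (CTGA in the last 25) was found in 12 members, of which 2 were called (16.7%), C51F7.3 and F55A11.10. An ACA placed near the 3′ end was found in 75, of which 8 were called (10.7%), and neither in 259, of which 28 were called (10.8%). Most members thus carried neither spelling, so these counts cannot show how calls fall over the kinds of snoRNA. The shares overlapped in their intervals, which for the 12 ran from 2.09 to 48.4%.

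Called members were also counted per chromosome, beside all tiles of it. Chromosome V had 13 called of 55 members (23.6%, interval 13.2 to 37.0%) and chromosome X had 1 of 33 (3.03%, interval 0.0767 to 15.8%). Over all 500 bp tiles the order was the reverse, with an IDR summit in 0.208% of tiles on V and 0.522% on X. The other counts were 8 of 59 on IV (13.6%), 8 of 71 on II (11.3%), 5 of 74 on I (6.76%) and 3 of 54 on III (5.56%), where 0.283% of tiles on IV, 0.317% on II, 0.458% on I and 0.461% on III held an IDR summit. Replicate 1 had 11 top members on V and none on X, and replicate 2 had 12 on V and 1 on X.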

How the data were processed

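Peak lists of 1 group with 2 biological replicates were analysed. Peak strength is a score that the authors deposited, made relative to a control on an unstated scale. The summit offset in bp was deposited with it. Per the text files deposited beside the lists, candidates were called for each replicate and for both pooled, and the IDR list was derived from these. The aligner, caller, versions and IDR threshold are not given in the sources used here. Lists on the ce10 build were not used, since builds were not converted. Reads were not analysed here, which leaves the depth unknown.

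Gene models were those of Ensembl release 115 on WBcel235 (ce11), and sequence was that of RefSeq for the same build. Each member was given the strongest summit within 200 bp of the gene, and position classes came from protein-coding transcripts. The top candidates of a replicate are the 737 strongest, as many as the IDR list holds. Stretches of 100 bases before and 20 after the RNA start were searched for the sequence elements. Shares have exact Clopper-Pearson 95% intervals, which cover counting only. No p-value was computed, since there is 1 group and genes are not replicates. Nothing says whether the replicates came from separate cultures beyond the label biological.

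The members, sequence elements and lists were chosen with earlier results of these data known. Genes were named by rule: the 25 with the strongest pooled summit, of which the strongest 15 are given in full, the strongest nested and independent members, the members nearest the threshold, some called in both replicates or in 1, hosts, and the protein-coding gene with the start nearest to a named summit. Window placement, counting and element search were tested on simulated data. Alternatives covered the extension, overlap, each replicate alone, the stronger peaks of the IDR list, the class definitions and promoter windows, and the box spellings. Tables were made with pandas 2.3.3 and numpy 2.4.6, intervals with scipy 1.17.1 and plots with matplotlib 3.10.9, under Python 3.11.15.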

Additional observations from a re-analysis of the deposited data

How the results depend on the processing

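With no extension of the genes, 1 member kept an IDR summit, 1 kept top candidates in both replicates, 24 kept a pooled candidate and 1 distinct summit remained. The nested minus independent difference was then 0 points for IDR summits and 3.30 points for pooled candidates, the opposite sign. For pooled candidates it was -3.73 points with 100 bp and -4.45 points with 500 bp. In the stronger part of the IDR list 22 members and 21 distinct summits were found, with a difference of -3.40 points, and 7 of the members with the pair of boxes. Outside protein-coding promoter windows 21 members were called, with a difference of -0.811 points. Fewer top candidates, 0.5 times as many, gave 10 members in both replicates, and 2 times as many gave 28. An extension of 500 bp gave 188 members with a pooled candidate. The top candidates of each replicate alone gave 31 to 35 members, 30 to 34 distinct summits and upstream shares of 80.0 to 94.1%. The nested minus independent differences were -4.24 to -0.344 points for these top candidates. For any candidate of 1 replicate they were -4.57 to -2.85 points. These alternatives for the boxes were chosen after seeing the data. A B box with a further G before it gave 13 members, 6 of them called. Asking only for the B box, with or without an A box, gave 57, of which 21 were called. The top candidates of each replicate alone reached 9 to 12 members with the pair. The causes were not tested. No paired analysis was possible because there is 1 group. Depth is unknown, so its limit on weak calls could not be given.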
